A study of Mus musculus with 8 samples.

Results

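Planar cell polarity genes build the system that orients cells within the plane of a tissue. The set described here holds 10 genes of its core: Vangl1, Vangl2, Celsr1, Celsr3, Prickle1, Prickle2, Ptk7, Dvl1, Dvl2 and Scrib. Probes were assigned by the RefSeq transcript that the array files give for each probe, and 8 of the 10 genes had a gene probe in this way, 1 probe each, among 34967 gene probes in all. No probe was matched to Prickle1 or Prickle2, and the Dvl1 probe was marked as masked on all 8 arrays, so 7 genes were measured. Vangl1 was chosen by its measured level, which tended to be higher in homozygous embryos. Its values in comparisons with homozygous embryos are therefore a description without a test. The 9 other genes are in the set for their place in the pathway.

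In the core pathway, Celsr cadherins link neighbouring cells, Vangl and Prickle proteins gather on one side of a cell, and Frizzled receptors with Dishevelled (Dvl) proteins gather on the opposite side. Wnt ligands with co-receptors such as Ror2 act on this asymmetry, and Ptk7, a receptor-like pseudokinase, and Scrib, a PDZ scaffold, work with Vangl proteins. In the mouse embryo the pathway is known for closure of the neural tube, lengthening of the body axis, orientation of inner ear hair cells and guidance of axons.

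The arrays held RNA of whole mouse embryos at E11.5, bred from carriers of an Ott1 allele that is expressed at a low level. Ott1, now called Rbm15, encodes an RNA-binding protein. The groups were 3 homozygous embryos (numbers 2, 7 and 16), 3 heterozygous embryos (numbers 3, 10 and 15) and 2 wild type embryos (numbers 11 and 13), with 1 embryo on each one-colour CodeLink array. The sources used here do not say how the allele was made, nor the strain, litter or sex of the embryos. In whole embryos a change in the number of cells that use a gene and a change in its level per cell cannot be told apart. No probe was matched to Rbm15, so the genotypes could not be checked on the targeted gene.

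The homozygous arrays were brighter before normalization, with median intensities of 61.45 (embryo 2), 61.52 (embryo 7) and 87.93 (embryo 16), against a range of 48.28 to 57.63 over the 5 other arrays. Embryo 16 stood apart from the rest: its log2 values correlated with those of the other arrays at 0.956 to 0.968, against 0.973 to 0.99 among the 7 others. Results below are therefore also given without embryo 16 where it sets them. Over the 23388 probes tested between the 3 homozygous and the 5 other embryos, 25 passed an adjusted p of 0.05, which is 0.107% (limma with Benjamini-Hochberg adjustment), and the median log2 difference was -0.06.

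Vangl1 and Vangl2 encode the multi-pass membrane proteins at the heart of the pathway, and loss of Vangl2 in the mouse leaves the neural tube open. The Vangl1 probe had a normalized intensity of 573, 718 and 814 in homozygous embryos 2, 7 and 16. It read 352, 450 and 293 in heterozygous embryos 3, 10 and 15 and 298 and 327 in wild type embryos 11 and 13. All 3 homozygous embryos were above all 5 others, as they were for 4.71% of the probes compared. Heterozygous embryo 10 came nearest to the homozygous embryos. On the log2 scale homozygous embryos averaged 9.44 ± 0.26 (SD, n = 3), heterozygous embryos 8.49 ± 0.31 (SD, n = 3) and wild type embryos 8.28 ± 0.09 (SD, n = 2). Homozygous embryos exceeded the 5 others by 1.03 on that scale (SE 0.17), or 2.05-fold, and 0.748% of all tested probes had a larger difference. The difference was 1.16 (SE 0.22) against wild type and 0.95 (SE 0.19) against heterozygous embryos, which share the homozygous arrays.

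The separation of Vangl1 was also present before normalization, with background-corrected intensities of 587, 773 and 825 in homozygous embryos against 236 to 405 in the others. The homozygous arrays were brighter as a whole at that stage, which favours such a separation. The authors' scaled intensities, which divide each array by 1 factor, were 9.46, 12.4 and 9.33 in homozygous embryos 2, 7 and 16, against 6.37, 8.32 and 4.82 in heterozygous and 5.57 and 5.88 in wild type embryos. The gap between the lowest homozygous and the highest other embryo was 0.35 on the log2 scale under the quantile normalization used here. It was 0.22 under median scaling, 0.38 under cyclic loess, 0.16 in the authors' scaled values and 0.32 with normexp background correction. The order within the homozygous embryos depended on the scaling, since embryo 16 was the highest under quantile normalization and was level with embryo 2, at 9.16, under median scaling. Without embryo 16 the difference was 0.93, or 1.9-fold, and without embryos 10 and 16 together it was 1.02.

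Between heterozygous and wild type embryos, a comparison that does not involve the homozygous arrays' means and did not serve to choose Vangl1, its log2 difference was 0.21 (SE 0.22, limma adjusted p = 1). The values of the groups overlapped, with heterozygous embryo 15 at 8.19 below both wild type embryos at 8.22 and 8.35. Leaving out heterozygous embryo 10 brought the difference to 0.04. In this comparison 0 of 23387 probes passed (0%), and 538 (2.3%) had an unadjusted p under 0.05.

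Vangl2 did not show the separation seen for its paralog. It had a log2 level of 7.46, 7.23 and 8.23 in homozygous embryos 2, 7 and 16. In the 5 other embryos it lay between 7.34 and 7.53. Embryo 16 alone was high, and homozygous embryo 7 was the lowest of all 8. The log2 difference was 0.19 (SE 0.20, limma adjusted p = 0.617), and without embryo 16 it was -0.11. Whether Vangl1 and Vangl2 differed in their response was not tested, because Vangl1 was chosen for its values.

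**Figure D1:**
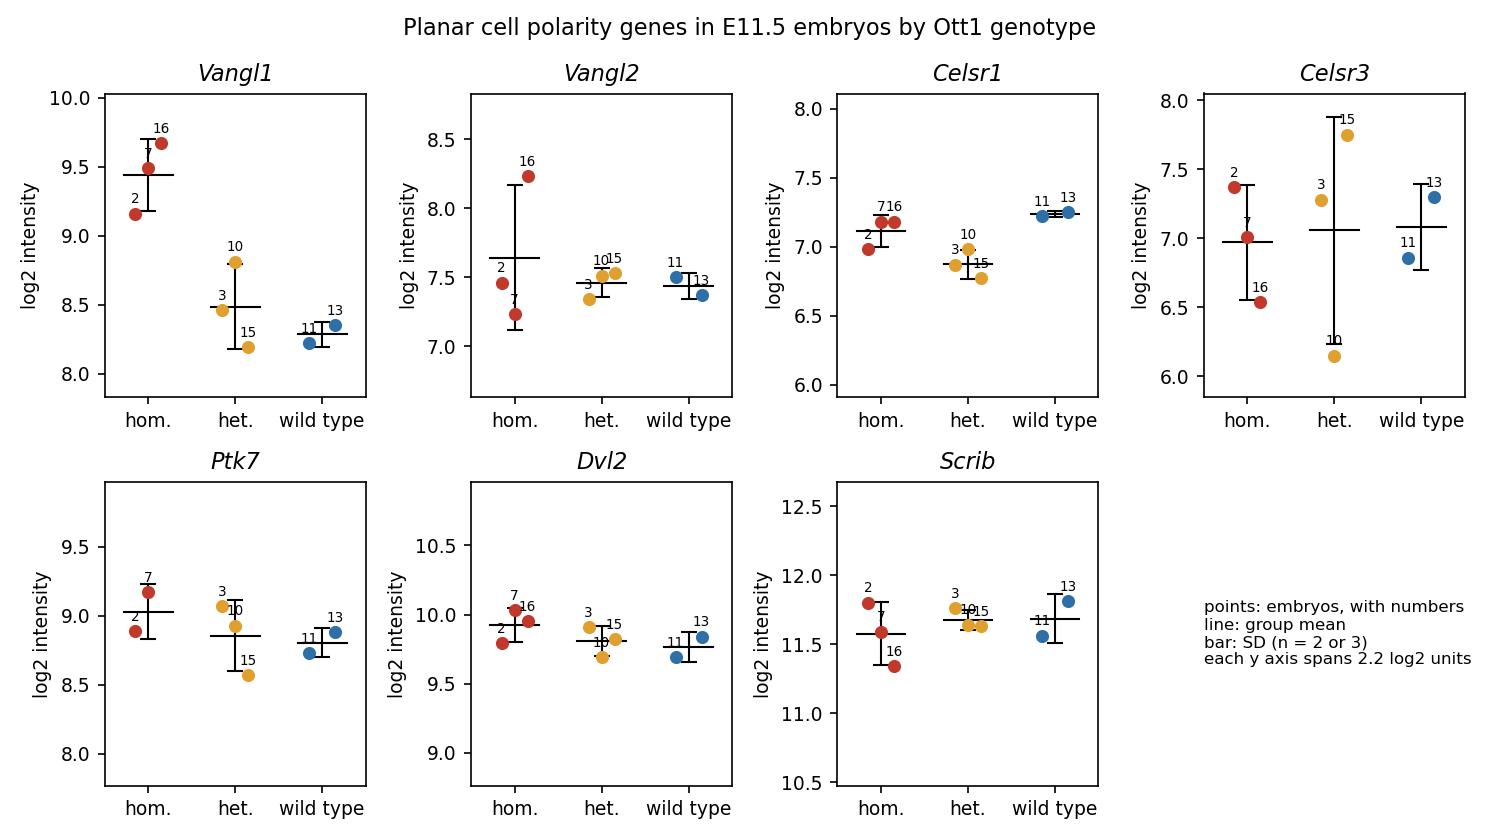
Log2 normalized intensity of the 7 measured planar cell polarity genes in each embryo (points, with embryo numbers), by Ott1 genotype, with the group mean (line) and SD (bar, n = 2 or 3). The 3 homozygous embryos lie at 9.16 to 9.67 for Vangl1, above the 5 others at 8.19 to 8.81, while the groups overlap for Vangl2, Celsr3, Dvl2 and Scrib.

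Celsr1 and Celsr3 are atypical cadherins. Celsr1 acts in epithelia such as the neural tube and skin, and Celsr3 in axon tracts of the nervous system. Celsr1 had a log2 level of 6.98, 7.18 and 7.18 in homozygous embryos 2, 7 and 16, of 6.87, 6.98 and 6.77 in heterozygous embryos 3, 10 and 15, and of 7.22 and 7.25 in wild type embryos. Wild type embryos were the highest, and the homozygous embryos lay between them and the heterozygous ones, with homozygous embryo 2 and heterozygous embryo 10 level at 6.98. Its log2 difference was 0.10 (SE 0.14, adjusted p = 0.711) between homozygous and the 5 other embryos, -0.13 (SE 0.12, adjusted p = 0.625) between homozygous and wild type, and 0.24 (SE 0.11, adjusted p = 0.436) between homozygous and heterozygous embryos.

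Between heterozygous and wild type embryos the log2 difference of Celsr1 was -0.37 (SE 0.12, unadjusted p = 0.0186, adjusted p = 1), or 1.29-fold lower in heterozygous embryos, and did not pass. The 3 heterozygous embryos were all below both wild type embryos, as were 10.3% of the probes compared. Over all alternatives this difference lay between -0.43 and -0.26 and kept its sign. It rests on 2 wild type embryos that differed by less than those of any other measured gene in the set.

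Celsr3 had the widest range over the 8 embryos of the measured genes, with log2 levels of 7.37, 7.01 and 6.54 in homozygous embryos 2, 7 and 16, of 7.28, 6.15 and 7.75 in heterozygous embryos 3, 10 and 15, and of 6.86 and 7.30 in wild type embryos. The lowest and the highest embryo were both heterozygous, and the log2 difference between homozygous and other embryos came to -0.09 (SE 0.34, adjusted p = 0.894), and to 0.13 without embryo 16. Neuron markers (15 of the 16 listed were measured) showed low values in the same 2 embryos in which Celsr3 was lowest. The mean log2 deviation of the neuron markers from their average was -0.10, -0.13 and -0.56 in homozygous embryos 2, 7 and 16 and 0.21, -0.58 and 0.38 in heterozygous embryos 3, 10 and 15, against 0.33 and 0.42 in wild type embryos. The part of neuron content in the Celsr3 values was not tested.

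Ptk7, the pseudokinase, had log2 levels of 8.89 and 9.17 in homozygous embryos 2 and 7, while its spot on the array of embryo 16 was marked as contaminated and left out. It was at 9.07, 8.93 and 8.57 in heterozygous and at 8.73 and 8.88 in wild type embryos. Homozygous embryo 7 was the highest, and embryo 2 fell inside the range of the others. The log2 difference was 0.20 (SE 0.16, adjusted p = 0.504) from 2 homozygous embryos. With marked spots kept, embryo 16 read 8.91, also inside that range.

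Dvl2, the Dishevelled adaptor that carries the Frizzled signal into the cell, was at 9.79, 10.03 and 9.95 in homozygous embryos 2, 7 and 16. In the 5 other embryos it lay between 9.69 and 9.91, and homozygous embryo 2 fell inside that range. The log2 difference was 0.13 (SE 0.10, adjusted p = 0.465), and its sign turned under median scaling (-0.14) and in the authors' scaled values (-0.17). The median of all probes was -0.22 and -0.25 in these scalings. Scrib, the scaffold that Vangl proteins bind and that also sets apical and basal sides of epithelia, was at 11.80, 11.59 and 11.34 in homozygous embryos 2, 7 and 16. The others ranged from 11.56 to 11.81. Its log2 difference was -0.11 (SE 0.12, adjusted p = 0.636), with embryo 16 the lowest of all embryos. It was 0.01 without that embryo, -0.46 under median scaling and -0.49 in the authors' scaled values (adjusted p = 0.182).

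Of the 6 measured genes other than Vangl1, 0 passed in homozygous against other embryos by limma, and 0 had an unadjusted p under 0.05. Over all probes 4678 (20%) had such a p. Adjusted p-values of the 6 genes ran from 0.465 to 0.894, their log2 differences from -0.11 to 0.20 and the standard errors from 0.10 to 0.34. None of the 6 passed in the 3 other comparisons either, where 8 of 23387 probes (0.0342%) passed between homozygous and wild type and 5 of 23388 (0.0214%) between homozygous and heterozygous embryos. The 1 unadjusted p under 0.05 among them was that of Celsr1 in heterozygous against wild type embryos. These 6 genes had a median log2 difference of 0.11 between homozygous and other embryos, with 4 positive, against a median of -0.06 and 39.8% positive over all probes. Under median scaling 2 of the 6 were positive, with a median of -0.08 against -0.22 over all probes. In the authors' scaled values 1 was, with a median of -0.12 against -0.25 over all probes.

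**Figure D2:**
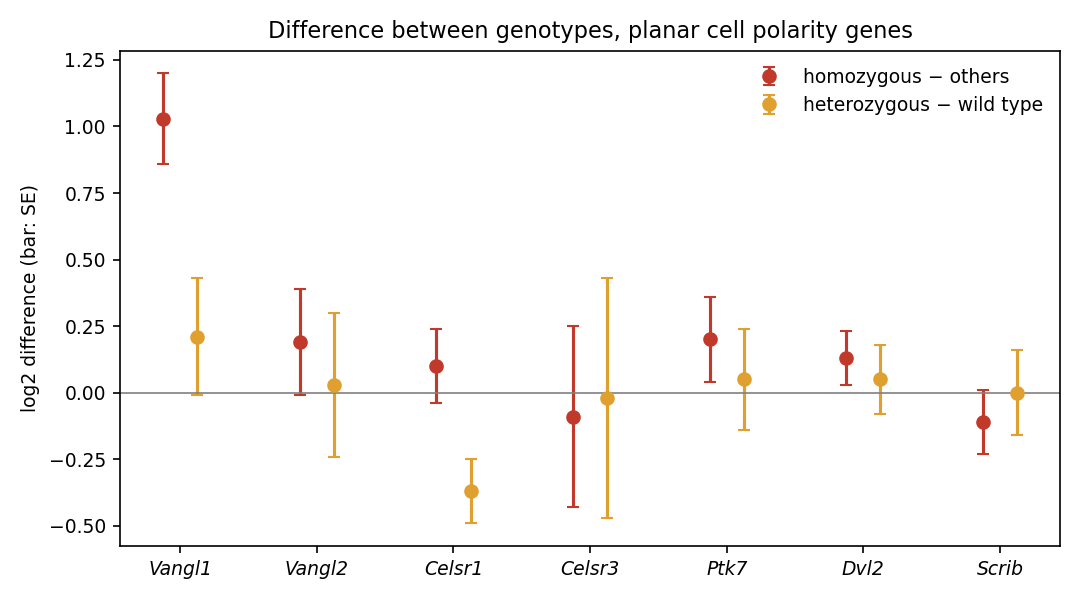
Log2 difference with its SE for the 7 measured genes, for homozygous minus the 5 other embryos and for heterozygous minus wild type embryos. Vangl1 stands at 1.03 in the first comparison and at 0.21 in the second, and Celsr1 at -0.37 in the second.

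**Figure D3:**
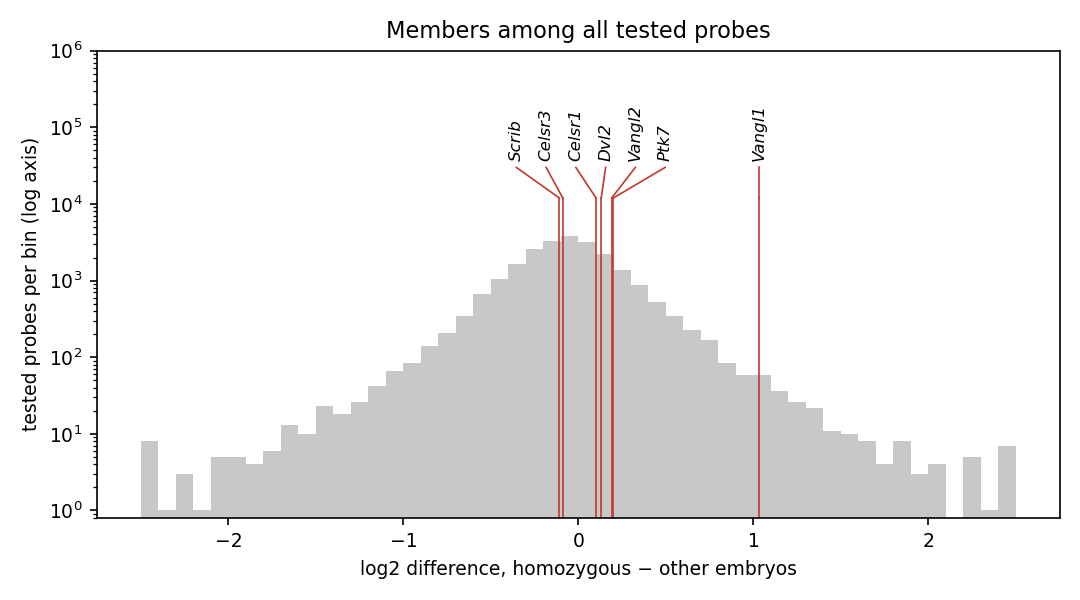
Number of tested probes (log axis) by log2 difference between homozygous and other embryos, with differences beyond the axis collected in the outermost bins and the 7 measured genes marked by lines. Vangl1, which was chosen for this value, lies at 1.03 in the right tail, and the 6 others lie between -0.11 and 0.20.

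Genes that act with the core set were described from 6 lists of ligands and receptors, further core genes, effectors, ciliary effectors, the Fat and Dachsous pathway and apicobasal partners of Scrib. Of their 74 listed names 52 were matched to a probe and 47 were tested. The effectors list Par3 beside Pard3 and the ciliary effectors Rsg1 beside Cplane2, each pair naming the same gene. The listed totals are therefore slightly too high. In homozygous against other embryos 0 of the 47 passed, with 3 higher and 6 lower at an unadjusted p under 0.05, and over all probes 6.63% were higher and 13.4% lower at that level. The median log2 difference of the 47 genes was 0.05. The homozygous embryos were all above the others in 3 of them and all below in 2, against 4.71% and 9.51% of all probes.

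Among ligands, receptors and co-receptors, 10 of 13 genes were tested, and Wnt5a was not matched to a probe while Wnt11 and Ror1 were not above background. Fzd2, a Frizzled receptor, had a log2 level of 10.37, 9.81 and 10.08 in homozygous embryos 2, 7 and 16 against 9.59 to 9.87 in the others. Homozygous embryo 7 lay inside that range, and the difference was 0.38 (SE 0.14, adjusted p = 0.192), or 0.08 in the authors' scaled values. Sdc4, a syndecan co-receptor, differed by 0.23 (SE 0.11, adjusted p = 0.271), or 0.04 in the authors' scaled values. The further core genes had 4 of 7 tested, all with a negative sign, but 2 of the 4 were positive without embryo 16 and 1 was under median scaling. Dvl3, a paralog of Dvl2, was at 5.20, 5.15 and 4.87 in homozygous embryos against 5.30 to 5.73 in the others, without overlap, with a difference of -0.39 (SE 0.13, adjusted p = 0.178). Celsr2 differed by -0.13 (SE 0.15, adjusted p = 0.634).

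Of the effectors, 17 of 23 were tested, 8 with a positive and 9 with a negative sign (4 and 13 under median scaling, 2 and 15 in the authors' scaled values). The median of all probes was -0.22 and -0.25 in these scalings. Pard3, a polarity scaffold that is also listed among the partners of Scrib, was at 7.08, 7.07 and 6.86 in homozygous embryos 2, 7 and 16. It ranged from 6.46 to 6.74 in the others, so the groups did not overlap, and its difference of 0.37 (SE 0.10, adjusted p = 0.141) did not pass. Grhl3, a transcription factor of neural tube closure, differed by -0.46 (SE 0.17, adjusted p = 0.204), with its spot missing in heterozygous embryo 15. Among the ciliary effectors 4 of 11 were tested, and their 2 leading genes went opposite ways. Intu was at 9.19, 9.09 and 9.38 in homozygous embryos against 8.72 to 9.0 in the others, a difference of 0.35 (SE 0.11, adjusted p = 0.166), or 0.07 in the authors' scaled values. Wdpcp was at 6.80, 5.62 and 5.83 in homozygous embryos 2, 7 and 16, while the others ranged from 6.37 to 7.18. Embryo 2 lay inside that range. Its difference was -0.76 (SE 0.28, adjusted p = 0.197).

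On the list drawn up for the Fat and Dachsous pathway 3 of 8 genes were tested. Dlg1, which stands on this list but is a partner of Scrib, was at 0.29 (SE 0.13, adjusted p = 0.252, or 0.14 without embryo 16). Fjx1, a kinase of Fat cadherins, was at 0.23 (SE 0.20, adjusted p = 0.535, or -0.03 without embryo 2). Among the apicobasal partners of Scrib 12 of 15 were tested and 9 had a positive sign, as did 39.8% of all probes. Under median scaling 5 of the 12 were positive, and in the authors' scaled values 2 were. The median log2 difference of the partners was 0.10. The median was -0.10 under median scaling, against -0.22 over all probes, and -0.13 in the authors' scaled values, against -0.25. Pard3 had the smallest p of these partners, and Dlg1, the scaffold that works with Scrib, came next. None of the genes named from these 6 lists passed in this comparison under any alternative run.

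Tissue markers were read beside these values. Markers of neurons (12 of 16 listed), heart (7 of 10), skeletal muscle (7 of 9), liver (7 of 9) and erythroid cells (8 of 9) were above background on all 8 arrays. So were 5 of the 10 listed markers of trophoblast and decidua, while Prl3d1 and Tpbpa of that list were not. Epithelial markers (11 of 11 tested) had a mean log2 deviation of 0.15, 0.04 and 0.26 in homozygous embryos 2, 7 and 16. It was -0.13, 0.24 and -0.14 in heterozygous embryos 3, 10 and 15, and -0.11 and -0.31 in wild type embryos. Their median log2 difference between homozygous and other embryos was 0.18 (10 of 11 positive). It was 0.03 (6 positive) under median scaling and -0.01 (5 positive) in the authors' scaled values, against -0.22 and -0.25 over all probes. Heterozygous embryo 10, the embryo outside the homozygous group with the highest Vangl1, was also high in this list. It was high in the cardiomyocyte list as well (0.29), while homozygous embryo 7 was only at 0.04 in the epithelial list. Krt19, an epithelial keratin, differed by 0.82 (SE 0.31, adjusted p = 0.208) between homozygous and other embryos and Krt18 by 0.50 (SE 0.24, adjusted p = 0.28), while Epcam differed by 0.09 (SE 0.12, adjusted p = 0.686) and Cdh1 by 0.14 (SE 0.10, adjusted p = 0.452). Neural progenitor markers (10 of 12 tested) had deviations of 0.11, -0.01 and -0.28 in homozygous embryos 2, 7 and 16. In the other embryos they lay between -0.04 and 0.15. Their median log2 difference was -0.10 (3 of 10 positive) between homozygous and other embryos, and 0.06 (7 of 10 positive) without embryo 16. Hypoxia genes (9 of 10 tested) were at 0.40, 0.33 and 0.97 in homozygous embryos 2, 7 and 16, against -0.42 to -0.23 in the others. Their median log2 difference was 0.85 between homozygous and other embryos, and 0.64 without embryo 16. This list was drawn up with earlier results of these data known, so its separation is a description only. Macrophage markers had 3 of 8 tested, 1 of them above background on all arrays. All 3 were lower at an unadjusted p under 0.05, as were 13.4% of all probes. Probes not above background on all arrays were kept by a genotype in which they were, so their low values elsewhere are partly built in. The mean deviation of the 3 markers was -0.65, -1.61 and -0.92 in homozygous embryos 2, 7 and 16 and 0.68, -0.64 and 1.08 in heterozygous embryos 3, 10 and 15, against 0.94 and 1.11 in wild type embryos. One of them, Fcgr1, passed between homozygous and wild type embryos (limma adjusted p = 0.0484), with its spot not above background in homozygous embryos 2 and 7. Liver markers had a median log2 difference of -0.57 between homozygous and other embryos (7 of 7 negative), skeletal muscle markers of -0.60 (6 of 7 negative) and neuron markers of -0.46 (15 of 15 negative). Over all probes 39.8% were positive. Between heterozygous and wild type embryos these medians were -0.42, -0.38 and -0.43. Heterozygous embryo 10 deviated by -0.37, -0.30 and -0.58 in these 3 lists, while heterozygous embryos 3 and 15 were positive in each. No gene of these 3 lists passed between homozygous and other embryos, and homozygous embryo 16 had the lowest skeletal muscle and liver deviations of all 8. Cardiomyocyte markers had a median of 0.35 (8 of 8 positive). It was 0.00 under median scaling and -0.03 in the authors' scaled values, where all probes had medians of -0.22 and -0.25. The part of array brightness, tissue content or the hypoxia genes in the Vangl1 values was not tested, and brightness cannot be told apart from homozygosity.

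Genes whose levels ran most like that of Vangl1 over the 8 embryos were taken from 10300 named genes without a missing value. The highest Pearson correlations were those of Cage1 (0.977), Col18a1 (0.975), Cyb5r1 (0.973), Pfkl (0.972) and Bag2 (0.971). Col18a1, a collagen of basement membranes, was at 10.16, 10.32 and 10.48 in homozygous embryos 2, 7 and 16 and at 9.60 to 9.79 in the others. Pfkl, a phosphofructokinase of glycolysis, was at 10.24, 10.29 and 10.50 in homozygous embryos against 9.40 to 9.84 in the others. The most opposed genes were Sult1e1 (-0.987), Ethe1 (-0.984) and Mbnl3 (-0.978). Sult1e1, an oestrogen sulfotransferase, was at 3.33, 2.28 and 2.38 in homozygous embryos against 3.98 to 5.08 in the others, and its spot was not above background in any homozygous or heterozygous embryo. These are the extremes of a search over 10300 genes in 8 embryos that fall into separate groups for Vangl1, so they carry no test, and a correlation of at least 0.9 was reached by 95 genes.

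Vangl1 and Rbm15 lie on the same chromosome, chromosome 3, with 63 protein-coding genes between them in the gene list of the mouse assembly GRCm38.p6. Of these 34 were tested, and 0 passed between homozygous and other embryos, with 3 higher and 2 lower at an unadjusted p under 0.05, against 6.63% and 13.4% of all probes. Their median log2 difference was -0.08. In 1 of the 34 all homozygous embryos were above the others and in 3 they were all below, against 4.71% and 9.51% of all probes. That 1 gene was Dclre1b, a telomere nuclease, with a difference of 0.70 (SE 0.15, adjusted p = 0.111), named here after its value was seen. The nearest neighbours of Vangl1 with a tested probe were Nhlh2 and Tspan2, with log2 differences of -0.14 (SE 0.37, adjusted p = 0.858, with the spot of homozygous embryo 16 left out as contaminated) and -0.14 (SE 0.12, adjusted p = 0.511).

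The difference of Vangl1 kept its sign in all 22 alternatives run, between 0.76 in the authors' scaled values and 1.17 without homozygous embryo 2. Vangl1 was chosen for this difference, and its homozygous embryos all lay above the others. A kept sign, above all with embryos left out, was therefore largely fixed beforehand and is a description only. In the scalings that lower the Vangl1 difference most, the median of all probes was lower too. It was -0.22 under median scaling and -0.25 in the authors' scaled values. Vangl1 thus stood 1.01 above the median in both, against 1.1 as reported. Ptk7 also kept its sign in the 21 alternatives that gave a value, but its size rested on single homozygous embryos, at 0.05 without embryo 7 and 0.34 without embryo 2. The signs of Vangl2, Celsr1, Celsr3, Dvl2 and Scrib turned in some of them.

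**Figure D4:**
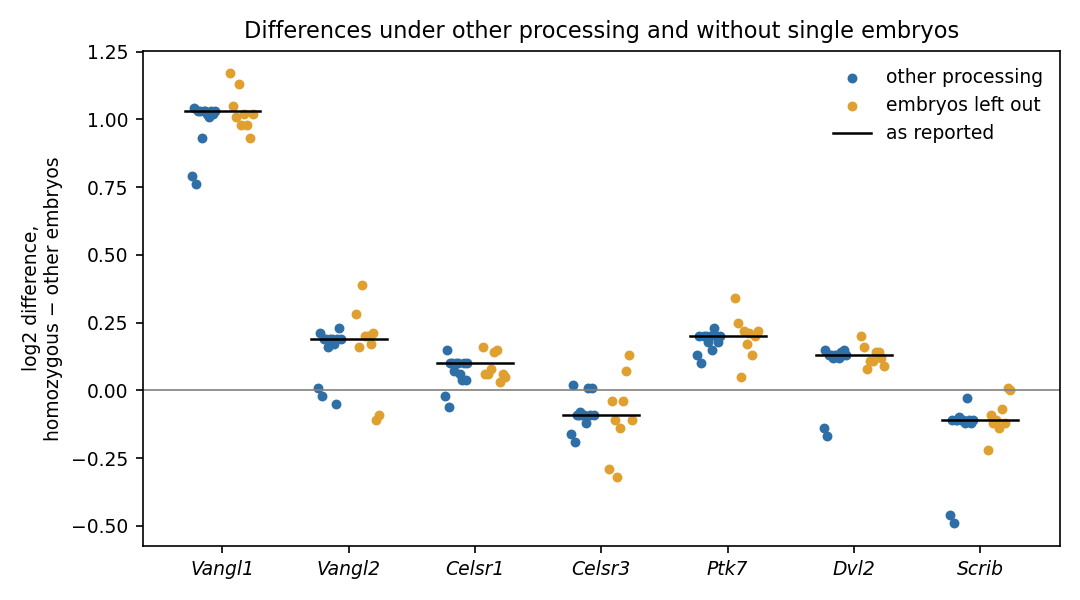
Log2 difference between homozygous and other embryos for each measured gene as reported (line), under other processing (blue points) and with embryos left out (orange points). Vangl1, which was chosen for this difference, stays between 0.76 and 1.17. The points of Vangl2, Celsr1, Celsr3, Dvl2 and Scrib lie on both sides of 0.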

How the data were processed

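RNA of 8 whole embryos was read on one-colour arrays. Per the file headers, the deposited files give a spot mean and a local background median, both as intensity, and their difference, which was used here. The authors' scaled intensity divides it by 1 factor per array (48.64 to 88.45), and the deposited series table differed from it by at most 5e-08. The sources used here name neither the scanner software nor a build.

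Control spots were dropped. Gene spots marked as contaminated, irregular or masked (206 to 1634 per array) were set missing. Intensities were quantile normalized, floored at the 5th percentile of positive values (4.5) and log2 transformed. A probe was tested if, for some genotype, every array of it lay above background, which kept 23389 probes. Tests were two-sided, with limma 3.58.1 in R 4.3.3 and Benjamini-Hochberg adjustment over every tested probe (threshold 0.05). The fits were 3 genotype means, and 3 homozygous against 5 other embryos. They share arrays. Probes were named by RefSeq accession through a GRCm38.p6 gene list (14763 with 1 symbol). The fit was tested on simulated data.

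The genes and lists were chosen with earlier results of these data known. All genes of the set are named, and from each pathway list up to 4 that passed or else the 2 with the smallest p. For tissue lists, which the same rule covers, examples are given only for epithelium and macrophages, and Epcam and Cdh1 were added after their values were seen. The number of arrays limits precision.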

Additional observations from a re-analysis of the deposited data

How the results depend on the processing

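The 25 probes called between homozygous and other embryos became 39 under cyclic loess (18 of them higher, against 7 of 25), 45 in the deposited table, 85 with normexp (44 higher), 50 with probes above background on all 8 arrays (22 higher), 6 without a filter (0 higher), 110 with array weights (43 higher), 118 with a trended robust prior (60 higher) and 70 without embryos 10 and 16, an alternative chosen after seeing the data. Leaving out 1 embryo gave 5 (without embryo 13 or 15) to 314 (without embryo 7, 183 higher), with 6 without embryo 11, 14 without embryo 3 and 39 without embryo 10. The 8 calls of homozygous against wild type became 27 under median scaling, 20 under cyclic loess, 27 in the deposited table, 5 with a floor at percentile 1, 36 with normexp, 4 without a filter, 5 with marked spots kept, 208 with array weights, 48 with a trended robust prior, 0 with only the groups compared, 33 without embryos 10 and 16, and 0 to 42 with 1 embryo left out. The 0 calls of heterozygous against wild type became 2 under median scaling, 1 under cyclic loess, 2 in the deposited table, 1 with array weights, 1 with a trended robust prior, 9 without embryos 10 and 16, and 0 to 3 with 1 embryo left out. The 5 calls of homozygous against heterozygous became 10 under median scaling, 9 under cyclic loess, 12 in the deposited table, 11 with normexp, 13 with array weights, 16 with a trended robust prior, 33 without embryos 10 and 16, and 4 to 58 with 1 embryo left out. The cause was not tested. None of the 6 measured genes other than Vangl1 passed in any of these.

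In homozygous against other embryos signs turned for Vangl2 in the deposited table (-0.02), with array weights (-0.05) and without embryos 10 and 16 (-0.09), for Celsr1 in the deposited table (-0.06) and under median scaling (-0.02), for Celsr3 under cyclic loess (0.02), with array weights (0.01) and with a Y-linked covariate (0.01), and for Dvl2 in the deposited table (-0.17) and under median scaling (-0.14). The median of all probes was -0.25 in the deposited table and -0.22 under median scaling. Without embryos 10 and 16 Scrib was at 0.00 and Celsr2 at 0.01, and Dlg1 was at 0.00 in the deposited table. With 1 embryo left out, Vangl2 lay between -0.11 and 0.39, Celsr3 between -0.32 (without embryo 10) and 0.13 (without embryo 16), Scrib between -0.22 and 0.01 and Fjx1 between -0.03 and 0.40. Where a wild type embryo was left out, the lone one remaining was assumed to vary like the other genotypes. No paired analysis was possible because embryo numbers are not shared between genotypes.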
